A study of Mus musculus with 24 samples.

Results

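Of the 12 RNA-sequencing libraries made from mouse dorsal hippocampus, 6 carried at least 500 CPM (counts per 1000000 counts of the library) of Ttr, the transcript of transthyretin, and 6 carried less. The 12 dorsal libraries are among 24 in the series. The split was chosen by the Ttr values themselves, with CPM computed as the count divided by the column sum, so differences between the 6 Ttr-rich and the 6 Ttr-poor dorsal libraries are given as a description and carry no test. Tests were made in the 12 ventral libraries, which the split did not use, and on the treatment of the fathers.

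The study sequenced messenger RNA from 2 ends of the hippocampus, dorsal and ventral, in C57BL/6J mice whose fathers had been given nicotine or saline. Sons and daughters of each kind of father made 4 groups of 3 animals, with 1 dorsal and 1 ventral library for each animal. The offspring carried no transgene and no drug treatment that the labels name, and their age is not in the labels used here. All 3 animals of a group carry the same number in their titles, and whether that number stands for a litter, a father or a cage is not stated, so p-values measure the spread between these libraries. Animals are called here by their letter within the group, A, B or C.

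The choroid plexus is a secretory epithelium that hangs in the ventricles of the brain and makes cerebrospinal fluid. Its cells move ions, bicarbonate and water across their apical membrane, bind thyroid hormone and retinol through secreted carriers of which transthyretin is the best known, and seal the border between blood and fluid with claudin-based tight junctions. The hippocampus lies against the ventricular wall and the plexus attaches along its fimbria.

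The Ttr-rich dorsal libraries spanned 1028 to 5283 CPM of Ttr with a median of 1778, and the Ttr-poor ones 33.4 to 117.4 CPM with a median of 66.0. Among nicotine-sired males, A had 1896, B 1653 and C 33.5 CPM. Among nicotine-sired females, A had 86.8, B 5278 and C 1660 CPM. Each nicotine-sired group thus held 2 rich libraries and 1 poor one. Among saline-sired males, A had 5283 CPM and B and C had 117.4 each. Among saline-sired females, A had 45.1, B 33.4 and C 1028 CPM. Each saline-sired group held 1 rich library and 2 poor ones, so 4 of the 6 rich libraries came from offspring of nicotine-treated fathers. The library just above the threshold was saline-sired female C with 1028 CPM and those just below were saline-sired males B and C with 117.4 CPM. No library lay between these values. Ttr took 0.103% to 0.528% of all counts in the rich libraries and at most 0.0117% in the poor ones. In bulk tissue, fewer cells of a type and less RNA per cell cannot be told apart.

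**Figure D1:**
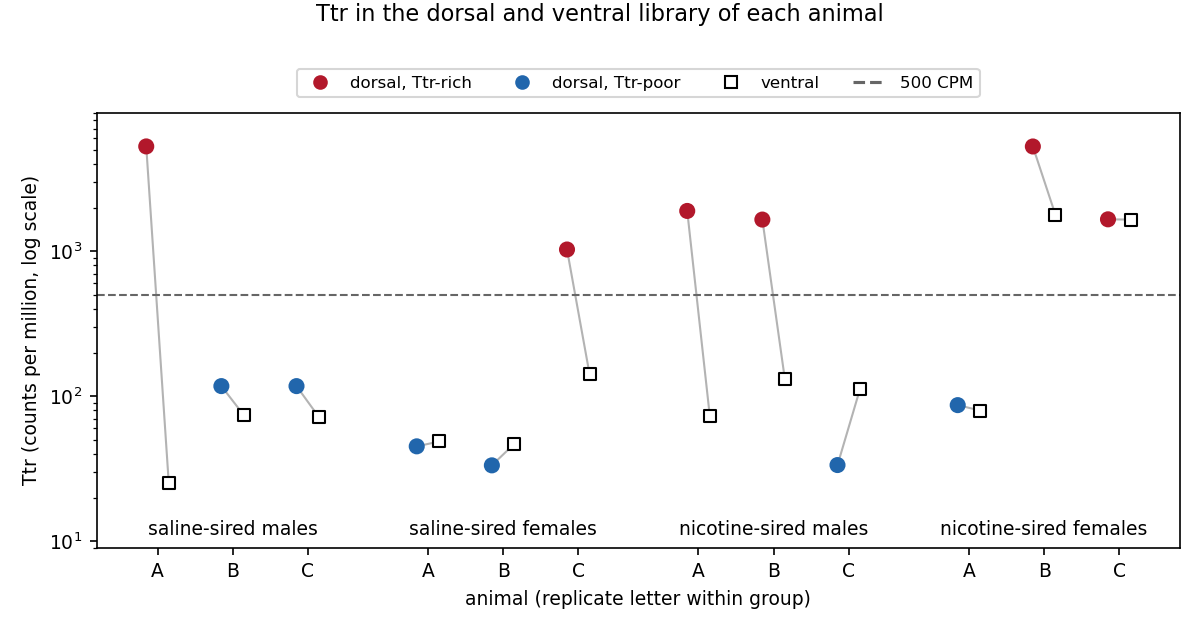
Ttr in CPM (log axis) in the dorsal (filled circles) and ventral (open squares) library of each of the 12 animals, joined by a line, with the 500 CPM threshold dashed. The 6 rich dorsal libraries sit between 1028 and 5283 CPM and belong to all 4 groups, and of the ventral libraries those of nicotine-sired females B and C lie above the threshold.

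The libraries held 32049770 to 47486547 counts. Rich dorsal libraries held 33914755 to 40809102 counts over 24646 to 25417 detected genes, and poor ones 38017930 to 46012974 counts over 23632 to 25151 genes. Mitochondrially encoded transcripts took 8.92% to 11.2% of counts in the rich and 8.49% to 10.8% in the poor libraries. Hippocampal markers were present in both classes. Across the 15 hippocampal neuron markers, summed expression was 5803 to 6693 CPM in the rich and 5740 to 7433 CPM in the poor libraries. Prox1, the dentate granule cell homeobox gene, ran from 58.4 to 103 CPM in the rich and from 43.0 to 105 CPM in the poor libraries.

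A gene was said to travel with Ttr when its lowest rich library lay above its highest poor library and its mean CPM plus 0.1 was at least 2-fold higher in the rich libraries. By this rule 105 of 19130 genes (0.549%), Ttr included, were higher in the rich libraries and 0 (0%) were lower. Without the fold limit, 195 genes (1.02%) had rich libraries all above the poor ones and 8 (0.0418%) had them all below. Of the 104 travelling genes other than Ttr, 48 differed by 2- to 4-fold, 40 by 4- to 10-fold and 16 by 10-fold or more. The ratio for Ttr, which defined the classes, was 38.7. With 1 CPM added in place of 0.1, which lowers the ratio of weakly expressed genes, 61 genes met the rule, all of them among the 105. Over 60 genes of 4 choroid plexus lists, all 60 had a higher mean in the rich libraries, 42 had no overlap between the classes and 39 travelled. Their median log2 ratio was 2.19 against 0.017 over all genes measured, of which 10900 of 19130 had a higher mean in the rich libraries.

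Membrane proteins that move ions and water were among the genes with the largest ratios. Kcne2 (ENSMUSG00000039672, mm10 chromosome 16, 92292389 to 92298129), an accessory subunit of potassium channels of the apical membrane, ranged from 6.90 to 26.1 CPM in the rich libraries (median 12.4) and from 0.149 to 0.630 CPM in the poor ones (median 0.193), a 37.99-fold ratio. The ranges of the classes lay far apart. Kcnj13, an inward-rectifying potassium channel, had 4.81 to 40.4 CPM in the rich libraries and 0.210 to 1.34 CPM in the poor ones, a 24.6-fold ratio. Slc4a5, a sodium bicarbonate cotransporter, had 5.26 to 29.4 CPM against 0.263 to 0.682 CPM, a 24.2-fold ratio. Aqp1, the water channel of the plexus, had 5.90 to 29.1 CPM against 0.273 to 1.09 CPM, a 20.9-fold ratio. Among the rich libraries, each of the 4 was lowest in saline-sired female C, the library nearest the threshold, and highest in saline-sired male A or nicotine-sired female B.

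Among the other channels and transporters, Clic6, a chloride channel family member, had 11.9 to 98.3 CPM in the rich libraries (median 32.2) and 1.32 to 6.09 CPM in the poor ones, a 13.2-fold ratio. Steap1 showed a 15.5-fold ratio, the lactate transporter Slc16a8 a 10.3-fold ratio and the retinoid-handling transporter Abca4 an 8.63-fold ratio. Trpv4, an osmosensitive cation channel, had 4.95 to 17.1 CPM against 1.05 to 1.80 CPM. In total 15 of the 24 genes of the transport list travelled. The copper transporter Slc31a1 did not overlap either, at 20.97 to 40.80 CPM against 13.8 to 17.6 CPM, but missed the fold limit with a ratio of 1.88. The remaining 8 members overlapped between the classes. Slc12a2, the sodium-potassium-chloride cotransporter, which neurons and oligodendrocytes also make, had 47.9 to 108 CPM in the rich and 44.7 to 80.2 CPM in the poor libraries, and the iodide transporter Slc5a5 had 11.8 to 19.4 CPM against 11.1 to 19.8 CPM.

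Secreted and hormone-related genes followed, with 15 of 21 besides Ttr travelling. Enpp2, which encodes autotaxin and is also made by oligodendrocytes, had 404 to 2020 CPM in the rich libraries (median 847) and 141 to 239 CPM in the poor ones, a 5.82-fold ratio. Its rich and poor ranges did not overlap. Folr1, the folate receptor that carries folate into the fluid, had 6.95 to 36.2 CPM against 0.472 to 1.72 CPM, a 16.7-fold ratio. Kl, the klotho gene, had 33.2 to 182 CPM against 10.98 to 24.8 CPM, a 4.68-fold ratio. Igf2, the imprinted growth factor secreted by plexus and meninges, had 73.4 to 209 CPM against 25.4 to 35.7 CPM, a 4.10-fold ratio. The augurin gene Ecrg4, listed in the table as 1500015O10Rik, had 12.1 to 54.5 CPM against 1.16 to 3.01 CPM, a 14.6-fold ratio. F5, coagulation factor V, had a ratio of 16.01 and Tmem72, a membrane protein of unknown role, a ratio of 30.3. Sostdc1, a secreted BMP antagonist, had 7.54 to 36.5 CPM against 1.78 to 3.52 CPM. The angiotensin-converting enzyme gene Ace had 25.1 to 108 CPM against 6.48 to 14.4 CPM. Stra6, the receptor for retinol-binding protein, did not travel, with a ratio of 1.23. Wfikkn2, a protease-inhibitor-like secreted protein, had 1.21 to 5.51 CPM against 0.342 to 1.51 CPM and overlapped.

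Hormone receptors were also among the travelling genes. Prlr, the prolactin receptor, had 6.93 to 47.4 CPM in the rich and 1.39 to 4.85 CPM in the poor libraries, an 8.42-fold ratio. The leptin receptor Lepr had 1.70 to 6.40 CPM against 0.789 to 1.49 CPM, a 3.32-fold ratio, and Crhr2, a receptor for urocortins, had 1.63 to 4.82 CPM against 0.710 to 1.56 CPM, a 2.70-fold ratio. Lepr and Crhr2 were in no list and were picked out after their values were seen, and their rich and poor ranges nearly touched.

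Of 11 junction and keratin genes, 8 travelled. Cldn2, a pore-forming claudin of leaky epithelia, had 2.92 to 23.2 CPM in the rich and 0.342 to 1.87 CPM in the poor libraries, a 12.4-fold ratio. The simple-epithelium keratins Krt18 and Krt8 had ratios of 7.32 and 6.19, and Cdh3, P-cadherin, a ratio of 9.70. Cldn1, the barrier-forming claudin, had 3.13 to 13.6 CPM against 0.571 to 3.76 CPM and overlapped. Matrix genes were not on a list of the plexus epithelium apart from Col8a1, whose ratio was 11.5. Its partner chain Col8a2 had a ratio of 6.70 and Col17a1, a transmembrane collagen of hemidesmosomes, a ratio of 6.40. The basement membrane collagens Col4a3 and Col4a4, noted after their values were seen, had ratios of 3.86 and 2.81, with 0.501 to 2.15 CPM against 0.0526 to 0.392 CPM for Col4a3.

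Msx1, a homeobox gene of the dorsal midline, had 5.90 to 17.1 CPM in the rich and 2.09 to 3.65 CPM in the poor libraries and was the 1 of 4 listed factors to travel. Otx2, the homeobox gene that specifies and maintains the plexus, had an 8.84-fold ratio but did not meet the rule. Its rich libraries spanned 2.11 to 20.9 CPM and its poor ones 0.368 to 2.30 CPM. The overlap came from saline-sired female C with 2.11 CPM and saline-sired male B with 2.30 CPM. Its exons share 154 bp with Otx2os1 on the opposite strand, while Kcnj13 shares 623 bp with Gigyf2 and Enpp2 345 bp with Gm26684. Exons of F5, Igf2, Ace, Mfrp, Krt8, Zic1, Prox1, Col4a3 and Cdkn1c also have an annotated gene opposite them. The strand setting of the counting is not given, so reads of those stretches cannot be assigned to 1 strand. Lmx1a, a factor of the roof plate from which the plexus grows, overlapped between the classes too, with 0.362 to 2.46 CPM against 0.0745 to 0.581 CPM.

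**Figure D2:**
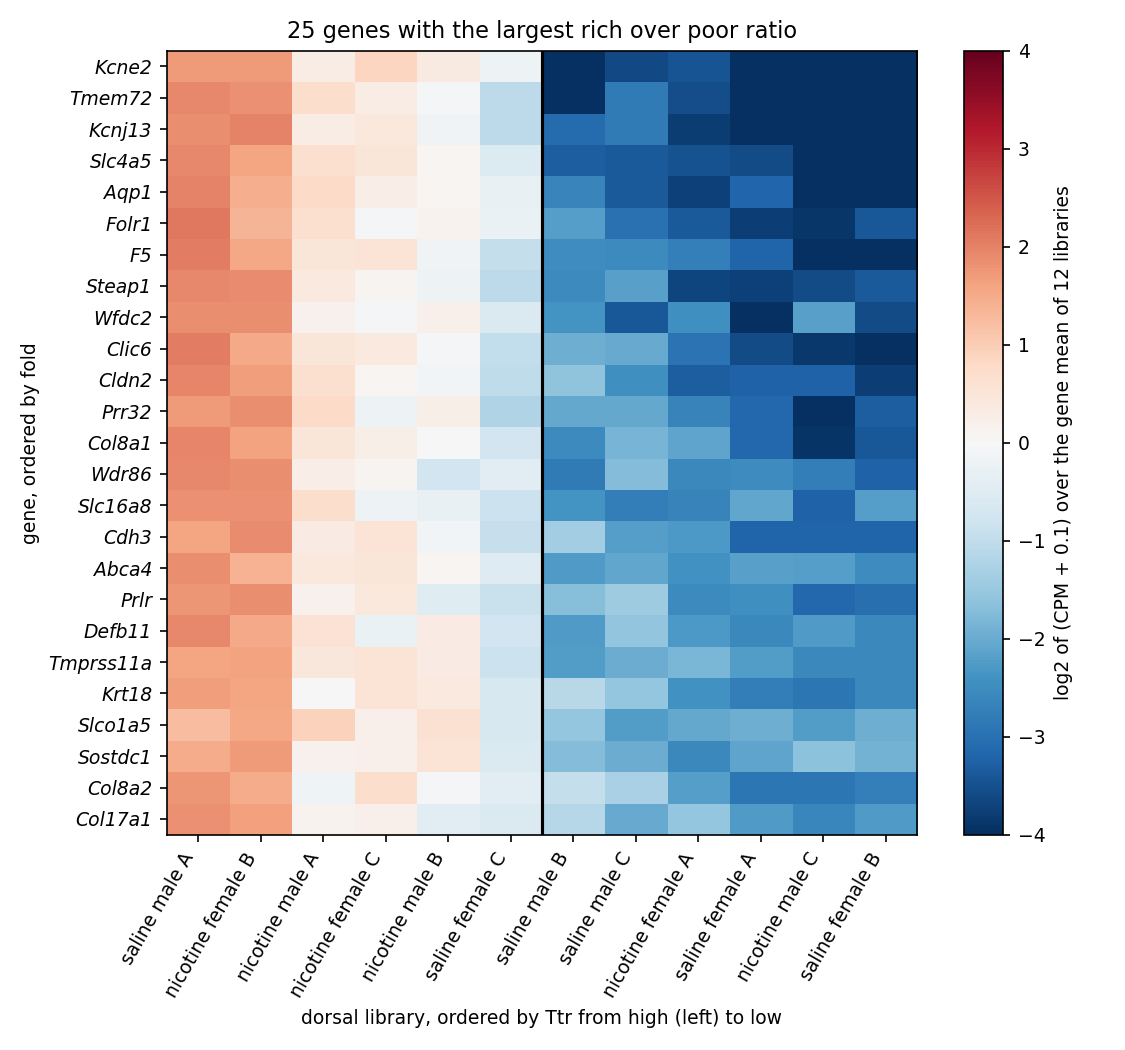
The 25 travelling genes with the largest ratios (rows, ordered by fold) in the 12 dorsal libraries (columns, ordered by Ttr), coloured by the log2 of CPM plus 0.1 over the mean of the gene. Every row is higher in each of the 6 libraries left of the line than in each of the 6 right of it, and saline-sired female C, the rich library with 1028 CPM of Ttr, is the palest of the 6 for most rows.

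Promoters are shown because the travelling genes moved together and Otx2 is the homeodomain factor of this epithelium. TAATCC, the core letters that OTX-type homeodomains bind, was searched on both strands in the 250 bases before to 50 bases after each start in a RefSeq table (GRCm38.p6). Of the 40 travelling genes in choroid plexus lists, Ttr included, 32 were in that table and 5 (15.6%) held the letters, against 7.02% of the 12285 matched genes that passed the dorsal filter and 8.14% of all 27025 genes of the table. Of all travelling genes 8 of 74 matched (10.8%) held the letters, and of the motile cilia genes 3 of 28 matched (10.7%). A gene counted if any of its windows held them, and Igf2 had 4 windows and Ace 2. The share of 15.6% rests on 5 genes, and matching letters are not a binding site. The windows of Abca4, Ace and Mfrp follow, with the letters or their reverse complement in capitals.
Abca4 (chr3:122044210-122044509, + strand): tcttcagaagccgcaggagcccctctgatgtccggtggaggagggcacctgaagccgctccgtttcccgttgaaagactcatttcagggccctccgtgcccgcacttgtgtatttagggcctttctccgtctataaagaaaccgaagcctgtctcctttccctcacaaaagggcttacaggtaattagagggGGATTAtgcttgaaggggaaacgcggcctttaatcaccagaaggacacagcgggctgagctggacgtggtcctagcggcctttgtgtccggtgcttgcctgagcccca
Ace (chr11:105967698-105967997, + strand): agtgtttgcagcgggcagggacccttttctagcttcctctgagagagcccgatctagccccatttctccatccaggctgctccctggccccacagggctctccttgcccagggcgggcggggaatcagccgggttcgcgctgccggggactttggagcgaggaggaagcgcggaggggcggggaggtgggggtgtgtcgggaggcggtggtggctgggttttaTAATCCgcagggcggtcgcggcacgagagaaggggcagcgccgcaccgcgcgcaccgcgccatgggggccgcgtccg
Mfrp (chr9:44101520-44101819, + strand): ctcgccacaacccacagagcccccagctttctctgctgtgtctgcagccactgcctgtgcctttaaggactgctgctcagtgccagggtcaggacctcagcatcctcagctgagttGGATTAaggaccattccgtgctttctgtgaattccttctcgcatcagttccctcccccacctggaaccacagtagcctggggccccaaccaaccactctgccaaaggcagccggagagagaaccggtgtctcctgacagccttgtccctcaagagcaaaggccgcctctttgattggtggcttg

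Igf2 and Vat1l were the remaining travelling plexus list genes with TAATCC. Mfrp, a membrane frizzled-related protein, had 20.0 to 74.8 CPM in the rich and 8.44 to 10.7 CPM in the poor libraries, a 4.06-fold ratio. The annotated end of Mfrp overlaps C1qtnf5 on the same strand, and C1qtnf5 travelled with a 2.57-fold ratio. Reads of the shared stretch cannot be assigned to one of them, so the 2 are not independent.

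To see how far the genes kept to 1 proportion, the CPM of a gene above its mean in the poor libraries was divided by the same excess of Ttr. For Ecrg4 this gave 9.09 to 11.6 CPM per 1000 CPM of Ttr in the 6 rich libraries, so the highest library was 1.27 times the lowest although Ttr itself spanned 1028 to 5283 CPM. Wfdc2, a small secreted protease-inhibitor-like protein, gave 1.09 to 1.43 CPM per 1000 CPM of Ttr and Igf2 gave 31.7 to 45.1. The growth inhibitor gene Cdkn1c, noted after its values were seen, gave 1.79 to 2.34. Kcnj13 varied more, from 4.31 to 8.01, Enpp2 from 225 to 448 and Otx2 from 1.153 to 3.82. The lowest excess of Kcnj13, Enpp2 and Otx2 was in saline-sired female C. In the ventral libraries of nicotine-sired females B and C, where Ttr was also high, the excess of Ecrg4 over the other 10 ventral libraries was 9.60 and 10.9 CPM per 1000 CPM of Ttr, inside the dorsal range. That of Kcnj13 was 8.83 and 11.6, above the dorsal range.

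Within the classes the genes were also graded. Correlations are Pearson r between log2(CPM + 0.1) of the gene and log2(CPM + 0.1) of Ttr. Across the 6 rich libraries the median correlation with Ttr was 0.955 over the 104 travelling genes and 0.142 over all genes measured. Across the 6 poor libraries it was 0.367 and 0.181. For the 60 choroid plexus list genes the medians were 0.960 and 0.704. Other lists were as high in the poor class: the chaperone medians were 0.751 and 0.857, the border macrophage medians -0.098 and 0.726. The poor libraries with the most Ttr were saline-sired males B and C, the only saline-sired males of that class. Their chaperone sums were 3118 and 3281 CPM, against 1730 to 2041 CPM in the other poor libraries. In the poor class, Ttr and group therefore cannot be told apart. These correlations are a description over 6 libraries each, whose Ttr values in the rich class fall into a pair at 5278 and 5283 CPM and a group of 4 between 1028 and 1896 CPM. Clic6 followed Ttr inside the poor class too, with r = 0.975 and 6.09 and 5.78 CPM in saline-sired males B and C, the poor libraries with the most Ttr, against 1.32 to 2.98 CPM in the other 4.

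Motile cilia genes separated the classes less than the transporters did. The epithelium of the plexus and the ependymal cells that line the ventricle both carry cilia. Of 31 cilia genes measured, 30 had a higher mean in the rich libraries, against 10900 of 19130 over all genes. The median log2 ratio of the cilia genes was 0.61. In 0 of them were the classes without overlap, against 16 of the 24 transport genes. Over all genes the share was 1.02%, so 0 of 31 does not set the cilia genes apart from genes in general. Their median correlation with Ttr was 0.891 across the rich and 0.714 across the poor libraries, against 0.961 and 0.643 for the transport genes. Foxj1, the master regulator of motile cilia, had 5.20 to 30.1 CPM in the rich libraries (median 14.98) and 5.66 to 17.7 CPM in the poor ones (median 6.80). Its 2 highest libraries were saline-sired male A (30.1) and nicotine-sired female B (27.4), which also had the most Ttr. The poor library of saline-sired male B had 17.7 CPM, above 3 of the 6 rich libraries, and the rich library of saline-sired female C was the lowest of all 12. Rsph1, a radial spoke protein, overlapped as well, with 3.64 to 13.2 CPM against 2.30 to 6.02 CPM. The summed level of the list was 131 CPM in saline-sired female C and 272 CPM in saline-sired male B, while their summed transporter levels were 290.2 and 256.6 CPM. The excess of Foxj1 per 1000 CPM of Ttr ran from -3.93 to 5.98 in the rich libraries. Whether ependyma was dissected along with the tissue was not tested.

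**Figure D3:**
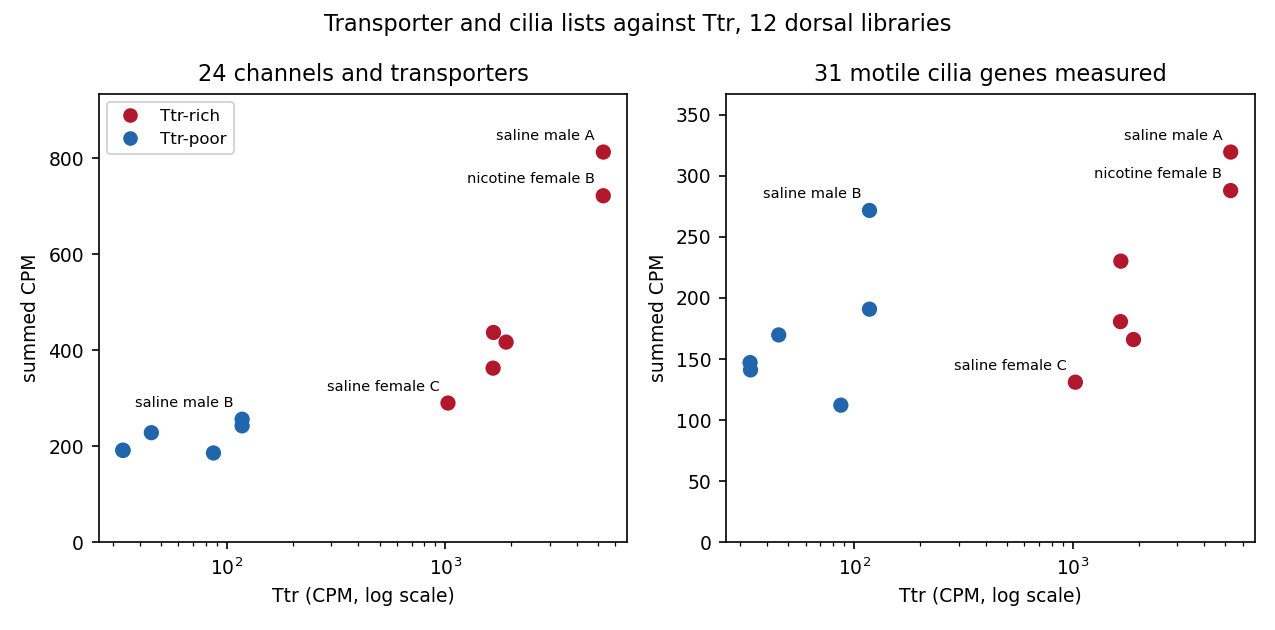
Summed CPM of the 24 choroid plexus channels and transporters (left) and of the motile cilia genes (right) against Ttr (CPM, log axis) in the 12 dorsal libraries. The transporter sums of the rich libraries (290.2 to 812.7 CPM) all lie above those of the poor ones (186.2 to 256.6 CPM), whereas the cilia sums overlap, with saline-sired male B high among the poor and saline-sired female C low among the rich libraries.

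Genes of the other cell types that a hippocampal dissection can include had smaller ratios than the plexus lists. All 21 leptomeningeal and stromal fibroblast genes measured had a higher mean in the rich libraries, with a median log2 ratio of 0.31 and 0 genes without overlap. Their summed level was 335 to 656 CPM in the rich and 239 to 546 CPM in the poor libraries. Dcn, decorin, had a higher mean in the rich libraries too, although its highest library was a poor one, at 42.1 CPM against 36.9 CPM. Plvap, which marks the fenestrated vessels found in the plexus stroma, had 6.06 to 7.75 CPM against 5.76 to 8.76 CPM, a ratio of 0.973. It was the 1 of 4 fenestrated endothelium genes with a lower mean in the rich libraries, and the median log2 ratio of the 4 was 0.08 with 0 genes without overlap. Border macrophage genes had a median log2 ratio of 0.12, blood cell genes 0.14, myelin genes 0.21, and genes of the thalamus and habenula 0.15. Blood-brain barrier endothelium, pericyte, astrocyte and microglia lists had medians between -0.01 and 0.04, and the hippocampal neuron list had -0.06. All 8 myelin genes, all 7 border macrophage genes measured and 8 of 9 pericyte and smooth muscle genes had a higher mean in the rich libraries. Of the hippocampal neuron genes 3 of 15 did, and over all genes measured 10900 of 19130 did. None of these lists held a gene whose classes did not overlap. Over all genes 1.02% had rich libraries all above the poor ones and 0.0418% all below, so 0 is a likely count in lists this short. Of the 12 thalamus and habenula genes measured, 8 had a higher mean in the rich libraries and the rest did not. Among those 8, Calb2, a calcium-binding protein, had a ratio of 1.75, at 15.3 to 82.2 CPM against 8.95 to 37.7 CPM. Zic1, a zinc-finger factor of the dorsal midline on the same list, had a ratio of 2.65, at 11.4 to 66.4 CPM against 3.67 to 20.5 CPM. Chaperone genes and glucocorticoid targets, kept as lists because earlier results of the series turned on them, had medians of -0.04 and -0.15.

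**Figure D4:**
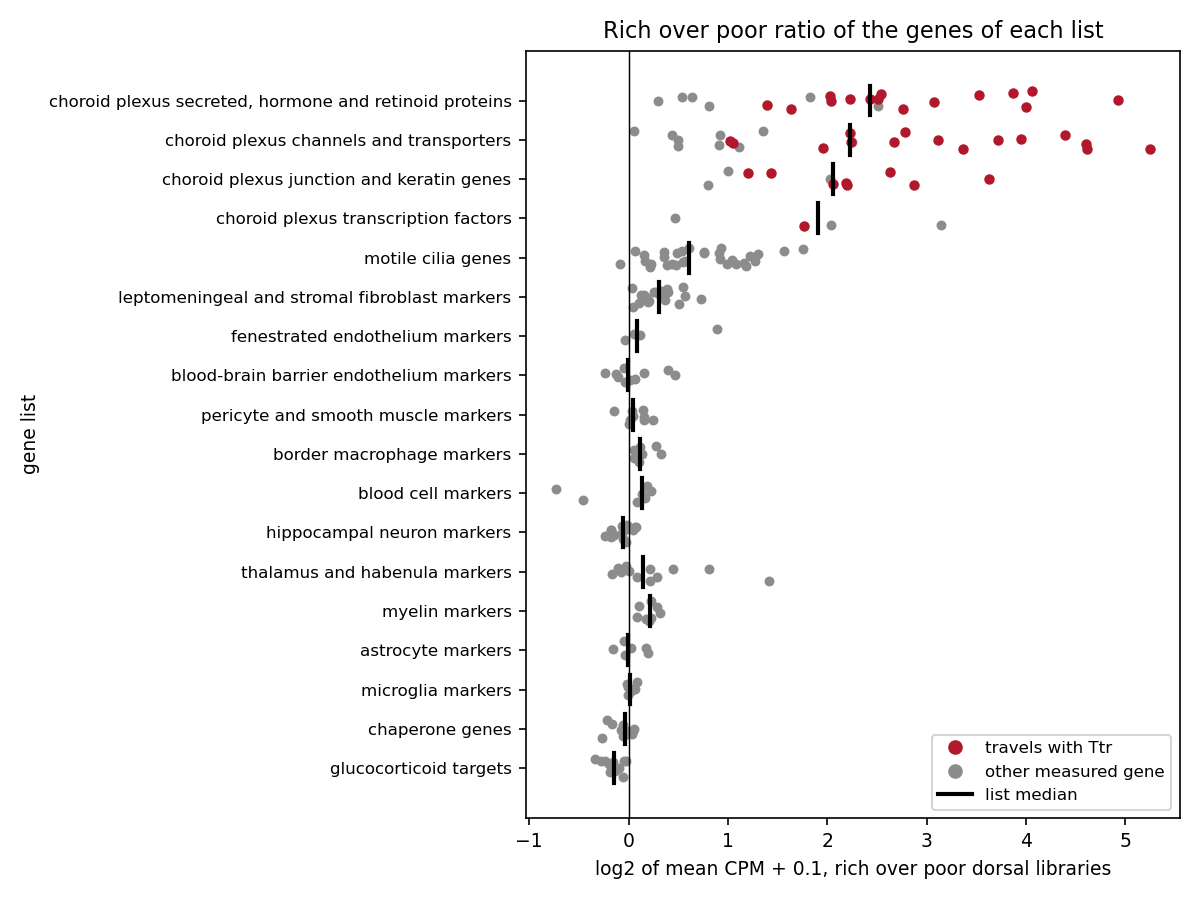
Log2 ratio of mean CPM (plus 0.1), rich over poor dorsal libraries, for each measured gene of 18 lists (Ttr left out), with travelling genes in red, other genes in grey and the list median as a bar. Red points appear in the 4 choroid plexus lists and in no other list, and the cilia list lies between the plexus lists and the rest with a median of 0.61.

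The association with Ttr was tested in ventral tissue that the split had not used. Ttr there was 73.4, 130.5 and 112.3 CPM in nicotine-sired males A, B and C, and 79.6, 1787 and 1653 CPM in nicotine-sired females A, B and C. It was 25.1, 73.9 and 71.6 CPM in saline-sired males and 48.7, 47.02 and 142.1 CPM in saline-sired females. Only nicotine-sired females B and C lay above 500 CPM, and both had a rich dorsal library. With edgeR's quasi-likelihood test of the slope on log2 Ttr within groups, 28 of 19223 ventral genes (0.146%) rose with Ttr and 5 (0.026%) fell, at a Benjamini-Hochberg adjusted p under 0.05. The share that fell varied with the method: DESeq2 called 57 higher and 30 lower, edgeR with 5 other epithelial genes in place of Ttr 39 and 24, and edgeR with no group term 87 and 0. Of the 28, 26 travelled in the dorsal libraries, which is 92.9% of the ventral genes that rose and 25% of the travelling genes. The other 2 were A2m and Tmem98.

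A slope of 1 means that a gene doubled when Ttr doubled. Ecrg4 rose by 0.82 (SE 0.051) log2 units per doubling of Ttr, with an edgeR adjusted p of 6.52e-06. It had 17.8 and 18.7 CPM in the 2 Ttr-high ventral libraries and 0.849 to 2.94 CPM in the other 10. Tmem72 rose by 0.93 (SE 0.073), adjusted p = 6.62e-05 in edgeR, with 12.3 and 15.2 CPM against 0.156 to 0.928 CPM. Slc4a5 rose by 1.03 (SE 0.091) and Folr1 by 0.76 (SE 0.067), both with an edgeR adjusted p of 0.000147. Kcnj13, Clic6, Cldn2, Aqp1 and Kcne2 rose too, with slopes of 0.75 to 0.99. Msx1 rose with a slope of 0.31 (SE 0.053). In all, 21 of 57 choroid plexus list genes tested rose and 0 fell. Enpp2 (slope 0.42, SE 0.071), Igf2 (slope 0.40, SE 0.098) and Otx2 (slope 0.65, SE 0.13) did not pass, with edgeR adjusted p-values of 0.0662, 0.46 and 0.103. The cilia list had a median slope of 0.044 with 22 of 31 genes positive and 0 called.

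Of the 104 travelling genes 89 passed the ventral filter. Among these, 88 had a positive slope, with a median of 0.33 against 0.0018 over all ventral genes tested, of which 51.8% were positive. In 81 of the 89 (91.0%), both Ttr-high ventral libraries lay above all 10 others, which held for 2.39% of all ventral genes. The slope rested on few animals. Leaving out nicotine-sired females B and C left 0 genes called by edgeR, with 1634 at an unadjusted p under 0.05. Leaving out nicotine-sired female A, the Ttr-low library of that group, also left 0 with 1888 unadjusted, since the slope is measured within groups. Without B alone 16 genes were called and without C alone 12. The 5 genes that fell, Kcnv1, Homer1, Slc39a10, Oprk1 and Gnb4, are neuronal or broadly expressed and had slopes of -0.39 to -0.14. None of the 5 had dorsal classes that did not overlap, which is the case for most genes (1.02% had rich libraries all above and 0.0418% all below).

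**Figure D5:**
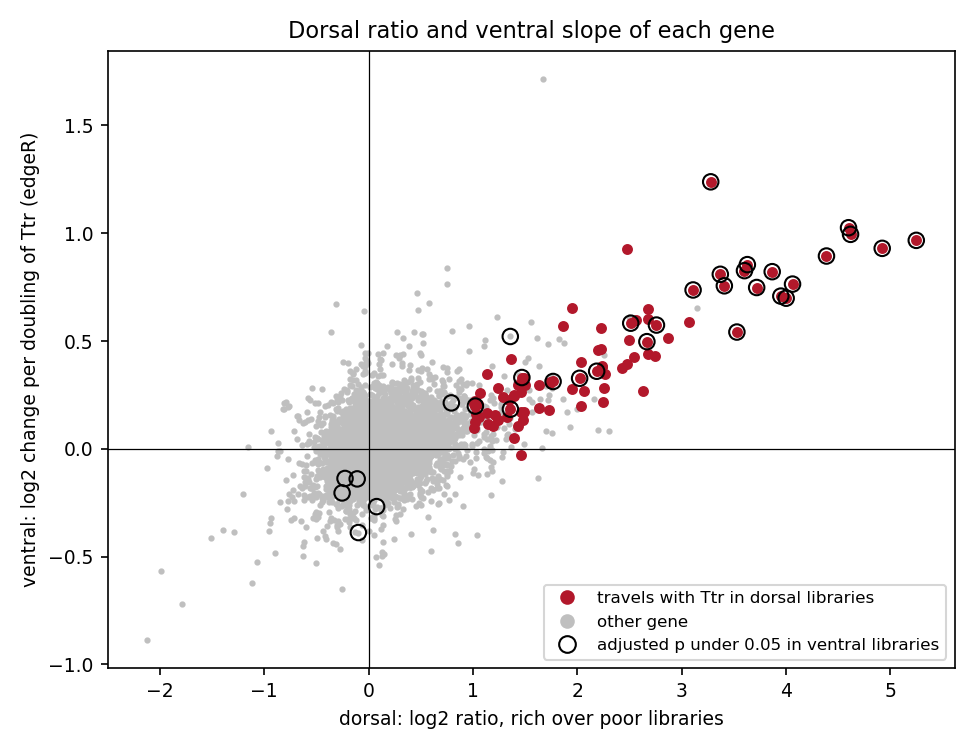
Each gene measured in both regions by its dorsal log2 ratio, rich over poor libraries (x), and its ventral log2 change per doubling of Ttr (y, edgeR slope within groups), with travelling genes in red and genes past the adjusted threshold ringed. Of the 89 travelling genes shown 88 lie above 0 on the ventral axis, and 26 of the 28 ringed genes above 0 are red.

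Whether a rich dorsal library goes with the animal was asked of the ventral libraries. Comparing ventral libraries by the dorsal class of the same animal, edgeR called 0 of 19224 genes (0%), with 360 at an unadjusted p under 0.05, and the DESeq2 Wald test called 2. Ventral Ttr itself was 1.64 log2 units higher on average in the 6 animals with a rich dorsal library, which an exact two-sided permutation test over 924 splits gave as p = 0.182. The 2 sets of ventral libraries overlapped. Saline-sired male A had the most Ttr of all dorsal libraries, 5283 CPM, and the least of all ventral ones, 25.1 CPM. Without that animal the difference was 2.25 log2 units, with an exact permutation p of 0.00866. Without nicotine-sired female B it was 1.03 and without nicotine-sired female C 1.05, each with an exact permutation p of 0.3355. The result thus depended on which single animal was left out.

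Dorsal libraries held more Ttr than ventral ones in 9 of 12 animals. The mean paired difference was 1.63 log2 units (SD 2.64), given as a description because the dorsal values also chose the classes. The difference was not steady across animals. It was largest in the 4 animals with a rich dorsal library and a ventral library under 500 CPM. Leaving out saline-sired male A lowered it to 1.08.

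Since rich libraries were unevenly spread over the groups, the travelling genes were followed into the comparison of fathers' treatment in the dorsal libraries. The fitted difference in Ttr, nicotine-sired minus saline-sired, was -0.56 log2 units (SE 2.102) in males and 2.65 (SE 2.23) in females, given without a test because the same Ttr values chose the classes. The male value turned to 3.38 when saline-sired male A was left out, and to 0.010 when nicotine-sired male C was. In males 90 of 19130 genes (0.47%) were higher and 251 (1.31%) lower by edgeR, and 0 of the 104 travelling genes were among them. In females 2 (0.0105%) were higher and 4 (0.0209%) lower, again with 0 travelling genes. With shares this small, 0 of 104 does not set the travelling genes apart from other genes. At an unadjusted p under 0.05 in edgeR the number of travelling genes was also 0, against 3362 of all 19130 genes in males and 2547 in females. Every group held both rich and poor libraries, and the travelling genes were chosen for the gap between these classes. That choice gave them a wide spread within groups, so the counts of 0 cannot show whether the fathers' treatment moved them. The travelling genes had a median log2 difference of -0.46 in males, where 13 of 104 were positive, and of 1.60 in females, where all 104 were positive. Rich libraries made 2 of 3 in nicotine-sired and 1 of 3 in saline-sired females. They also made 2 of 3 in nicotine-sired and 1 of 3 in saline-sired males, where the highest library, saline-sired male A, was saline-sired. Of 31 cilia genes, Tppp3, a tubulin-binding protein, was the one called, with a log2 difference of -0.97 in males (SE 0.19, edgeR adjusted p = 0.0326). That call was lost on leaving out any of nicotine-sired males A, B and C, saline-sired males A and B or saline-sired female B. Adding Ttr as a covariate changed the male calls from 341 to 444 genes and the female calls from 6 to 2. Leaving out any of the 6 males moved the male calls to between 87 (nicotine-sired male A) and 124 (saline-sired male C), while they were 211 with saline-sired female B left out and 624 with nicotine-sired female A left out. The female calls ranged from 0 (saline-sired female B or C or nicotine-sired female C left out) to 12 (saline-sired male C left out). The difference between the sexes in the effect of the fathers' treatment (effect in males minus effect in females) was called by edgeR's interaction test as above 0 for 162 of 19130 genes (0.847%) and below 0 for 266 (1.39%). None of the 104 travelling genes was called, and 0 had an unadjusted p under 0.05, while their median difference was -1.95 log2 units. Because the choice of these genes gave them a wide spread within groups, no conclusion is drawn from these counts either.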

How the data were processed

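RNA from dorsal and ventral hippocampi was column-purified and turned into strand-marked mRNA libraries, read from 1 end, per the labels' protocols. Tools named by the submitters' processing notes are Cufflinks, Cuffdiff 2.2.1.3 and TopHat2 2.1.0, with the build mm10 (GRCm38). How reads were counted, with which strand setting and annotation, is not given in the sources used here. The authors deposited raw counts of 51912 Ensembl genes in 1 table, and all its 24 library columns matched a label. Of the identifiers, 51633 were found in GENCODE M21.

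CPM values were computed from the deposited counts and column sums. Dorsal classes followed the 500 CPM threshold of Ttr, and ratios used a pseudocount of 0.1 CPM. Tests used edgeR 4.0.16 (R 4.3.3; robust quasi-likelihood F test, two-sided, TMM, filterByExpr by group) adjusted by Benjamini-Hochberg over every gene tested, with calls under 0.05. The slope on log2(Ttr CPM + 1) had group as a covariate and left Ttr out of the test. DESeq2 1.42.0 was an alternative. Ventral Ttr was compared between dorsal classes with an exact permutation test. The planned test of dorsal against ventral Ttr is given as values only, since dorsal Ttr chose the classes. The edgeR step was tested on simulated data. Figures were drawn with matplotlib 3.10.9.

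The classes, the 18 gene lists and the tests were chosen with earlier results of these data known. Genes were named from the 25 travelling genes with the largest ratios, the 15 genes called with the smallest p in each direction of each test, and the list members, with predicted genes left out of the ranking. Names picked after their values were seen are Lepr, Crhr2, Col4a3, Col4a4, Cdkn1c, A2m, Tmem98 and those marked so in the text. The dorsal and the ventral library with 1 title prefix come from 1 animal and pair by that label.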

Additional observations from a re-analysis of the deposited data

Results flagged for a closer look

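Among 90 sets of 6 dorsal libraries (19 summed lists and 26 genes, in each class), 7 had 1 library apart from the other 5 by more than 0.625 of the whole range, where chance gives about 1 set in 20. Among the rich libraries, saline-sired male A had summed thalamus and habenula markers of 279.4 CPM and summed glucocorticoid targets of 940.2 CPM, above the other 5. It was the one saline-sired male in the rich class, and the poor libraries of saline-sired males B and C had glucocorticoid target sums of 991 and 908 CPM, against 516 to 635 CPM in the other 9 dorsal libraries. Nicotine-sired female C had summed microglia markers of 313.3 CPM, also the highest rich library. Among the poor libraries, saline-sired male C stood highest for summed astrocyte markers (3968 CPM), Wdr86 (0.707 CPM) and Defb11 (0.101 CPM). Saline-sired male B stood highest among them for Slco1a5, with 0.101 CPM, a level of a few reads.

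The effect of the father's treatment in dorsal libraries differed between the sexes for 3 of 31 cilia genes by edgeR's interaction test, where 1.39% of all 19130 genes were called in the same direction and 0.847% in the other. The difference of the 2 effects, males minus females, was -1.34 log2 units for Dnah5, -1.67 for Tppp3 and -3.47 for Spag17, with adjusted p-values of 0.0468, 0.0169 and 0.0457. Cilia levels beside these were highest in saline-sired males A and B and nicotine-sired female B, and the part of ependymal tissue in these differences was not tested.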

How the results depend on the processing

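Thresholds of 250 and 1000 CPM of Ttr gave the same 6 and 6 dorsal libraries and 105 travelling genes. A pseudocount of 1 CPM left 61, TMM-scaled sizes 99 and no filter 116, and leaving out single libraries gave 95 to 154. The 33 ventral calls became 87 with DESeq2, 87 with no group term, 63 with 5 other epithelial genes in place of Ttr, 0 without the 2 libraries farthest from the median of Ttr, and 0 to 45 with single libraries left out. Ventral calls by dorsal class were 2 with DESeq2, 0 to 1 with single libraries left out, and 0 without nicotine-sired females B and C, a setting chosen after seeing the data. For the fathers' treatment edgeR called 87 to 624 genes in males and 0 to 12 in females with single libraries left out, and 2 in females with Ttr as covariate. DESeq2 called 878 in males and 284 in females.

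The replicate letters are not stated to pair animals across groups, and same-lettered deviations correlated between -0.134 and 0.301. With the letters as a replicate block, 3 ventral slopes, 0 ventral genes by dorsal class, 164 genes in males and 2 in females were called. The dorsal minus ventral difference of Ttr pairs libraries of 1 animal; with no pairing it was 1.63, and with single animals left out it was 1.08 to 1.94. Ventral Ttr by dorsal class differed by 1.03 to 2.25 with single animals left out.

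Signs changed for slopes near 0. Homer1 had 0.0073 with no group term, and Gnb4 0.0059 without the 2 farthest libraries and -0.30 to 0.0099 with single libraries left out, the highest without nicotine-sired female A. The male difference in Ttr ranged from -1.11 to 3.38 (without saline-sired male A) and was 0.010 without nicotine-sired male C. The cause of these changes was not tested. Genes under about 1 CPM rest on few reads.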

Other observations

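The rich libraries also carried genes that no list held, all chosen here after their values were seen. Bhmt, which methylates homocysteine from betaine and is known mainly from liver, had 0.271 to 1.35 CPM in the rich and 0 to 0.152 CPM in the poor dorsal libraries. Slc24a5, a cation exchanger known from pigment cells, had 1.22 to 3.97 CPM against 0.152 to 0.556 CPM. Cox8b, a subunit isoform of cytochrome c oxidase known from muscle and brown fat, had 1.001 to 4.54 CPM against 0.184 to 0.565 CPM. Sulf1, which trims sulfate from heparan sulfate chains, had 11.8 to 47.3 CPM against 2.61 to 7.80 CPM, and the secreted semaphorin gene Sema3b had 3.95 to 13.4 CPM against 1.08 to 2.04 CPM. Defb11, a beta-defensin gene, had 0.250 to 2.16 CPM against 0 to 0.101 CPM.

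Otx2os1, a noncoding gene on the strand opposite Otx2, had 0.0556 to 0.735 CPM in the rich and 0 to 0.0505 CPM in the poor libraries, a level of few reads. Without a stated strand setting its reads and those of Otx2 cannot be told apart where the exons overlap. Across the 6 rich libraries, the pericyte and smooth muscle list had a median correlation with Ttr of -0.90, and across the 6 poor ones -0.73, with summed levels of 167 to 229 CPM and 166 to 219 CPM that overlapped between the classes.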
